A study of Mus musculus with 5 samples.

Results

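Complex I (NADH:ubiquinone oxidoreductase) was examined in RNA from isolated adult mouse cardiomyocytes as all genes of the deposited table whose symbol begins with Nduf or mt-Nd. These were 49 of the 12446 listed genes: 7 subunits encoded by mitochondrial DNA, 36 nuclear-encoded subunits, 4 assembly factors (Ndufaf1 to Ndufaf4), and Ndufa4 with its relative Ndufa4l2, which carry complex I symbols. Ndufb1 was not analysed here. The rule used symbols alone, but it was set with earlier results of these data known. All 49 passed the filter on low values described in the methods.

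Both groups came from male C57BL/6 mice injected into the thoracic cavity at 8 weeks of age with adeno-associated virus (AAV), and the labels give an age of 12 to 14 weeks. The OSKM-CMs group (3 libraries, replicates 1, 2 and 3) received mixed AAV-cTnT vectors encoding tagged Myc, Klf4, Sox2 and Oct4 (OSKM). Control-CMs (2 libraries, replicates 3 and 5) received AAV-cTnT-BFP, a vector for blue fluorescent protein. Titers per vector differed, at 2.5e10 virus genomes per gram of body weight for each of the 4 factor vectors and 1e11 for the BFP vector. The cTnT (cardiac troponin T) promoter directs expression to cardiomyocytes in both groups, and cardiomyocytes were then isolated and purified from the hearts. Whether the libraries represent different animals is not stated, so the p-values rest on the spread among these 5 libraries, and that spread may be technical.

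Complex I takes electrons from NADH to ubiquinone and pumps protons across the inner mitochondrial membrane, and it is the largest enzyme of the respiratory chain. Its matrix arm holds the flavin and the iron-sulfur clusters and is made of nuclear-encoded core subunits, whereas the proton-pumping core of its membrane arm is encoded by mitochondrial DNA. Accessory subunits, all nuclear-encoded, surround both arms, and assembly factors bind intermediates without staying in the finished enzyme. The heart depends heavily on this enzyme, since beating cardiomyocytes draw most of their ATP from oxidative phosphorylation.

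RNA of complex I was lower in OSKM-CMs in both genomes, and most deeply for mt-Nd1, mt-Nd2 and mt-Nd3. Of the 49 genes, 44 were called lower, 0 higher and 5 not called (limma, adjusted p below 0.05), where 14.3% of the 10915 tested genes were called lower and 15.9% higher (30.2% in either direction). The median log2 fold change of OSKM-CMs over Control-CMs was -1.22 for the 7 mitochondrially encoded subunits, -0.84 for the 36 nuclear subunits and -0.48 for the 4 assembly factors, against 0.022 for all tested genes. For 47 of the 49 genes every OSKM library lay below both control libraries, which was so for 27.9% of all tested genes; the groups lay apart in either direction for 57.9%. In bulk RNA, fewer cells of a type and less RNA per cell cannot be told apart.

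**Figure D1:**
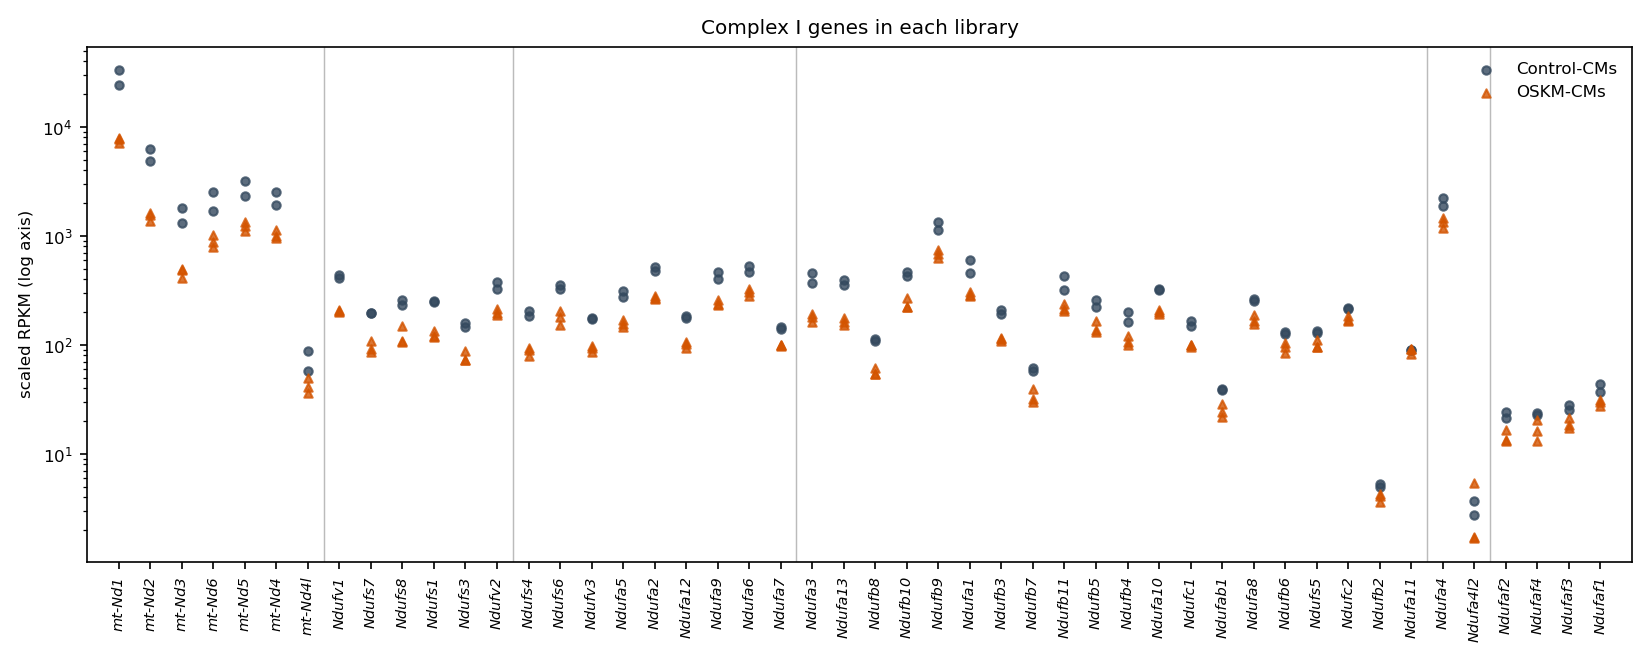
Level of 48 of the 49 complex I genes in each library, as scaled RPKM on a log axis; circles are the 2 Control-CMs libraries and triangles the 3 OSKM-CMs libraries. Vertical lines separate mitochondrially encoded, nuclear core, accessory matrix arm, accessory membrane arm, Ndufa4 family and assembly factor genes, and the triangles lie below the circles for 46 of the 48 genes drawn.

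Counts depended on the scaling between libraries. The main scaling was TMM (trimmed mean of M values). Levels are given as RPKM, reads per kilobase of gene and per library size, divided by the TMM factor of each library (scaled RPKM). Scaled by library totals alone, the median of all tested genes stood at 0.36 (0.19 with totals over nuclear genes), and calls over all genes were 650 lower and 3985 higher in place of 1558 and 1740. Under those totals 27 complex I genes were lower and 1, Ndufa11, was higher, beside 5.96% of tested genes called lower. Scaled by totals over nuclear genes, 38 were lower and 0 higher, beside 9.39% of tested genes called lower. Under each of these scalings the mitochondrial median stayed lowest, the nuclear median next and the assembly factor median nearest to that of all genes.

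**Figure D2:**
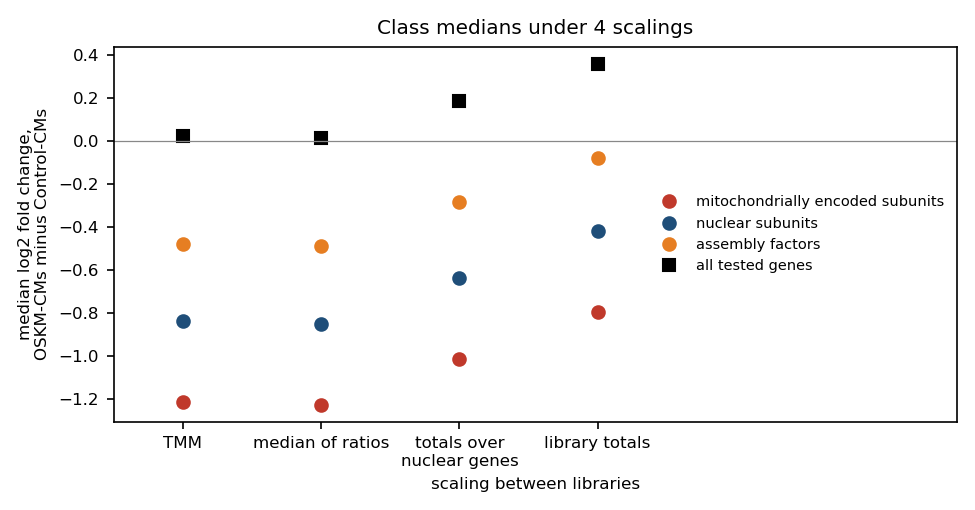
Median log2 fold change, OSKM-CMs over Control-CMs, of 3 classes of complex I genes and of all tested genes under 4 scalings between libraries. From TMM to library totals the medians move from 0.022 to 0.36 for all genes and from -1.22 to -0.80 for mitochondrially encoded subunits; with median of ratios they are 0.013 and -1.23. The order of the classes is the same under each scaling.

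The subunits encoded by mitochondrial DNA form the membrane-arm core. mt-Nd1, which helps to build the ubiquinone-binding site where the arms meet, had 24398 and 32954 scaled RPKM in Control-CMs replicates 3 and 5, and 7724, 7931 and 7064 in OSKM-CMs replicates 1, 2 and 3. The control libraries were both far above the OSKM libraries, and control replicate 5 was the higher of the pair. The mean fell from 28676 ± 6050 (SD, n = 2) to 7573 ± 452 (SD, n = 3), a 3.79-fold lower level (log2 fold change -1.91, SE 0.15, adjusted p = 0.000249). mt-Nd2, an antiporter-like proton-pumping subunit, had 4821 and 6269 scaled RPKM in the controls and 1551, 1622 and 1381 in OSKM-CMs (log2 fold change -1.86, SE 0.15, adjusted p = 0.000225). mt-Nd3, a small subunit near the junction of the arms, had 1309 and 1781 in the controls and 497, 484 and 411 in OSKM-CMs (log2 fold change -1.72, SE 0.16, adjusted p = 0.000399). The OSKM libraries retained 26.4%, 27.4% and 30.03% of the control level for mt-Nd1, mt-Nd2 and mt-Nd3.

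The remaining mitochondrially encoded subunits fell by less. mt-Nd5, the pumping subunit at the far end of the arm, had 2328 and 3172 scaled RPKM in the controls and 1333, 1102 and 1220 in OSKM-CMs (log2 fold change -1.16, SE 0.16, adjusted p = 0.00185). mt-Nd4, its neighbour in the arm, had 1914 and 2547 in the controls and 1120, 964 and 999 in OSKM-CMs (log2 fold change -1.11, SE 0.15, adjusted p = 0.00174). In both, the groups were well apart, at 44.3% and 46.1% of the control level. mt-Nd6, the subunit encoded on the other strand of the mitochondrial genome, had 1689 and 2526 in the controls and 1025, 788 and 869 in OSKM-CMs (log2 fold change -1.22, SE 0.19, adjusted p = 0.00354). mt-Nd4l had the fewest reads of the 7, 53 and 80 in the controls and 37, 33 and 45 in OSKM-CMs, or 72.6 ± 21.3 against 42.0 ± 7.03 scaled RPKM (log2 fold change -0.76, SE 0.21, adjusted p = 0.0318). Its groups did not overlap, but they came close, at 57.6 for the lower control and 49.6 for the higher OSKM library. The mt-Nd4l call was lost without control replicate 5 (log2 fold change -0.46, adjusted p = 0.162), without OSKM replicate 1 (-0.74, adjusted p = 0.0899) and without OSKM replicate 2 (-0.65, adjusted p = 0.0778). It was also lost under library totals (-0.35, adjusted p = 0.17) and under totals over nuclear genes (-0.56, adjusted p = 0.062).

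The order of levels per length within a library was the same in all 5 libraries: mt-Nd1, mt-Nd2, mt-Nd5, mt-Nd4, mt-Nd6, mt-Nd3, then mt-Nd4l. The gaps between them changed, however. The ratio of mt-Nd1 to mt-Nd5 RPKM, which needs no scaling between libraries, was 10.5 and 10.4 in the controls and 5.79, 7.20 and 5.79 in OSKM-CMs. For mt-Nd2 over mt-Nd5 it was 2.07 and 1.98 in the controls and 1.16, 1.47 and 1.13 in OSKM-CMs. Neither ratio overlapped between the groups, and OSKM replicate 2 lay nearest to the controls in both. By contrast, mt-Nd6 over mt-Nd5 was 0.726 and 0.796 in the controls and 0.769, 0.715 and 0.712 in OSKM-CMs, so the groups overlapped. mt-Nd1 made up 66.8% of the summed RPKM of the 7 subunits in each control library and 58.1% to 61.4% in OSKM-CMs.

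Along the mitochondrial DNA the genes stand in the order mt-Nd1, mt-Nd2, mt-Co1, mt-Co2, mt-Atp8, mt-Atp6, mt-Co3, mt-Nd3, mt-Nd4l, mt-Nd4, mt-Nd5, mt-Nd6, mt-Cytb, per the GENCODE M21 annotation. All but mt-Nd6 lie on 1 strand, which is transcribed as long precursors that are cut at the transfer RNAs. The complex I genes at the beginning and middle of this order (mt-Nd1, mt-Nd2, mt-Nd3) had log2 fold changes from -1.91 to -1.72, and those from mt-Nd4l to mt-Nd6 had -1.22 to -0.76. The other 6 mitochondrial messenger RNAs, for subunits of complexes III, IV and V, lay between these sets, with 6 of 6 lower and log2 fold changes from -1.58 (mt-Atp8) to -1.38 (mt-Cytb). This grouping was seen after the values were known and is given as a description.

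**Figure D3:**
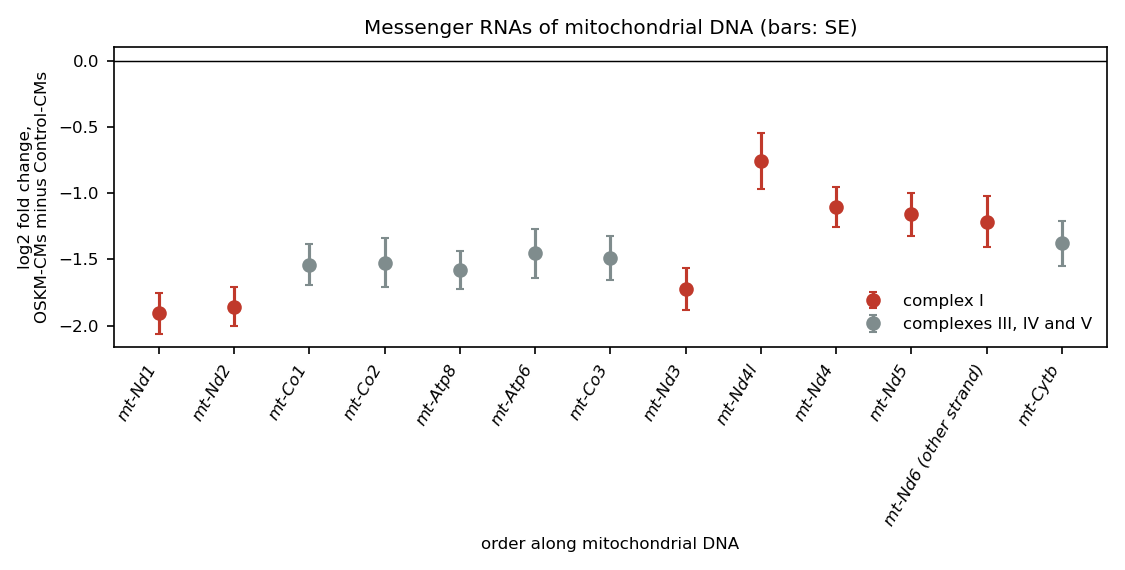
Log2 fold change, OSKM-CMs over Control-CMs, of the 13 messenger RNA genes of mitochondrial DNA in genome order; points are limma estimates, bars are SE, and colour marks complex I. mt-Nd1, mt-Nd2 and mt-Nd3 lie at -1.91, -1.86 and -1.72, below the other genes, while mt-Nd4l, mt-Nd4, mt-Nd5 and mt-Nd6 lie at -1.22 or above.

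Some mitochondrial genes share sequence with nuclear copies or with a neighbour. In GENCODE M21 transcripts, mt-Nd4l matched the pseudogene Gm10222 at 100% identity over 294 of 297 bases, mt-Nd3 matched Gm28438 at 99.7% over 345 of 348 bases, and mt-Nd4 matched Gm28439 at 100% over 876 of 1378 bases. No copy of at least 200 bases at 98% identity was found among pseudogene transcripts for mt-Nd1, mt-Nd2, mt-Nd5 or mt-Nd6. Outside complex I, mt-Co2, mt-Co3 and mt-Atp6 matched pseudogenes at 100% over nearly their full length, and mt-Co1 over 483 of 1545 bases. Gm10925, the copy of mt-Atp6, drew 3543 and 4787 reads in the controls, against 2482 and 3482 for mt-Atp6 (log2 fold change of the copy -1.44). The values of these genes may therefore share reads with copies too. Gm10222 is listed in the table with 59 and 75 reads in the controls and 27, 20 and 23 in OSKM-CMs (log2 fold change -1.48, adjusted p = 0.000923), so it drew about as many reads as mt-Nd4l in the controls and fewer in OSKM-CMs. The mt-Nd4l values are therefore uncertain, and how the counting assigned shared reads is not given in the sources used here. mt-Nd4l also overlaps mt-Nd4 by 7 bases, and mt-Nd5 overlaps mt-Nd6 by 14 bases on opposite strands. The strand setting is not given either, so reads of mt-Nd6 cannot be told apart from reads of the opposite strand.

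All 7 nuclear core subunits were lower, within a narrow range of log2 fold changes from -1.04 to -0.82. Ndufv1, which binds NADH and the flavin, had 436 and 411 scaled RPKM in the controls and 198, 210 and 206 in OSKM-CMs (log2 fold change -1.04, SE 0.10, adjusted p = 0.000485). Ndufv2, its iron-sulfur partner, had 323 and 380 in the controls and 187, 212 and 197 in OSKM-CMs (log2 fold change -0.82, SE 0.12, adjusted p = 0.00246). Ndufs1, the largest iron-sulfur subunit of the matrix arm, had 253 and 248 in the controls and 117, 134 and 120 in OSKM-CMs (log2 fold change -1.02, SE 0.11, adjusted p = 0.000757). In all of these NADH-side subunits the groups were far apart, and Ndufv2 showed the widest gap between the controls.

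Core subunits nearer to ubiquinone were lower as well. Ndufs7, carrier of the last iron-sulfur cluster, had 195 and 194 scaled RPKM in the controls and 90.6, 108 and 85.2 in OSKM-CMs (log2 fold change -1.04, SE 0.13, adjusted p = 0.00126). Ndufs8, another iron-sulfur subunit, had 230 and 256 in the controls and 105, 148 and 108 in OSKM-CMs (log2 fold change -1.02, SE 0.17, adjusted p = 0.0036). OSKM replicate 2 was the highest of its group in both, most clearly for Ndufs8, and still below both controls. Ndufs3, a subunit of the same module, had 147 and 159 in the controls and 72.0, 88.0 and 72.8 in OSKM-CMs (log2 fold change -0.97, SE 0.13, adjusted p = 0.00164). Ndufs3 has a near-identical processed pseudogene, Gm12251, which is listed with 10 to 30 reads per library.

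**Figure D4:**
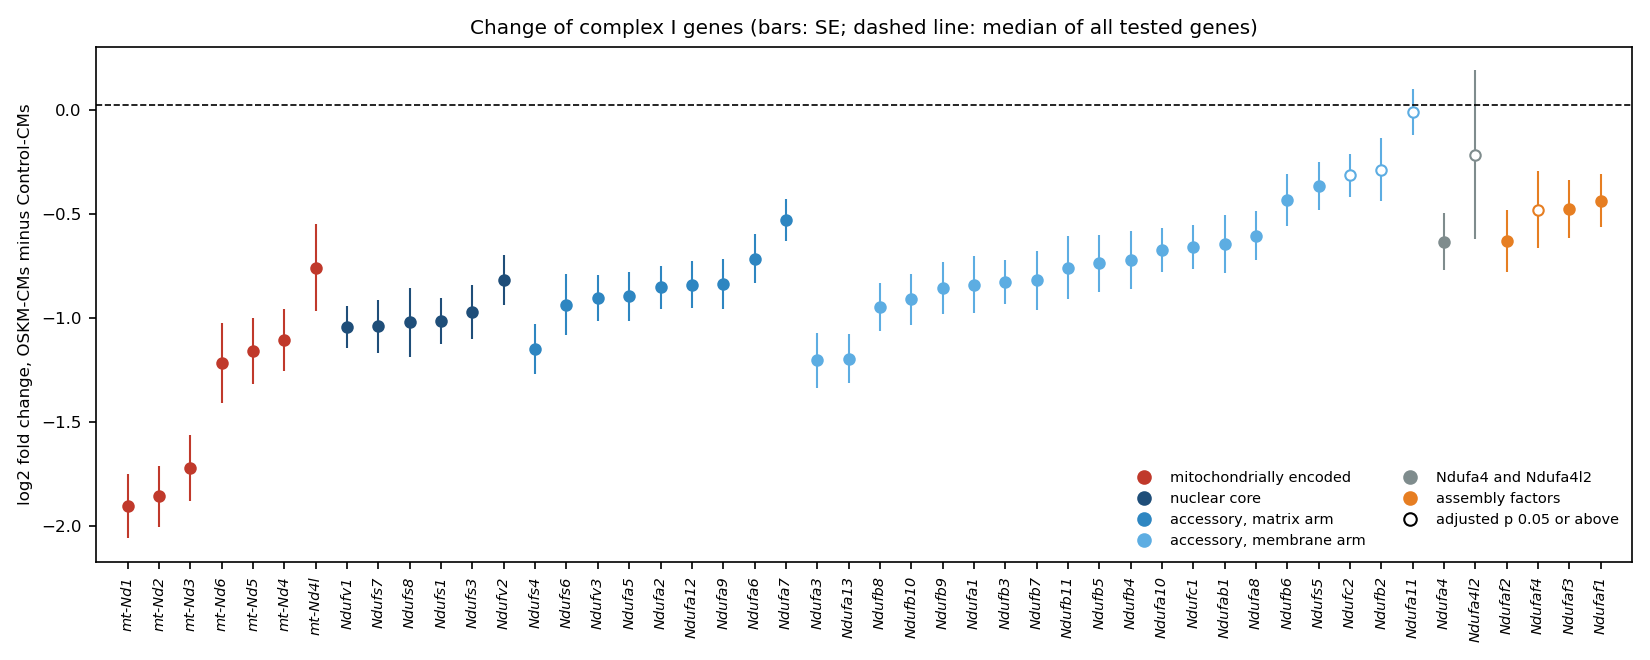
Log2 fold change, OSKM-CMs over Control-CMs, of 48 of the 49 genes by class; points are limma estimates, bars are SE, open points had an adjusted p of 0.05 or above, and the dashed line is the median of all tested genes at 0.022. The core subunits lie between -1.04 and -0.82, whereas the membrane-arm accessory subunits spread from -1.20 (Ndufa3) to -0.0095 (Ndufa11).

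The accessory subunits of the matrix arm were lower in 9 of 9 cases, with a median log2 fold change of -0.85. Ndufs4, a subunit added late in assembly whose loss can cause Leigh syndrome, had 185 and 203 scaled RPKM in the controls and 78.2, 93.3 and 89.6 in OSKM-CMs (log2 fold change -1.15, SE 0.12, adjusted p = 0.000665). Its controls were both far above the OSKM libraries, whose mean was 44.8% of the control mean. Changes of the other members of this class ran up to -0.53 for Ndufa7.

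The accessory subunits of the membrane arm were more uneven, with 17 of 20 lower and a median of -0.73. Ndufa3 had 370 and 455 scaled RPKM in the controls and 162, 181 and 191 in OSKM-CMs (log2 fold change -1.20, SE 0.13, adjusted p = 0.000764). Ndufa13, also known as GRIM-19, had 357 and 396 in the controls and 163, 178 and 151 in OSKM-CMs (log2 fold change -1.20, SE 0.12, adjusted p = 0.00051). Ndufb8, a subunit whose protein is often used to gauge assembled complex I, had 109 and 112 in the controls and 54.4, 61.7 and 54.3 in OSKM-CMs (log2 fold change -0.95, SE 0.11, adjusted p = 0.00112). In each of these the groups lay wide apart. The smallest called changes, named after their values were seen, were those of Ndufb6 (log2 fold change -0.43, adjusted p = 0.037) and Ndufs5 (-0.37, adjusted p = 0.0489), and both missed the threshold in the authors' deposited table (FDR 0.0528 and 0.0738). Near-identical processed pseudogenes are listed for Ndufs5, Ndufb4, Ndufab1 and Ndufa12, so their values may share reads with these copies.

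The 3 nuclear subunits that were not called all belong to the membrane arm. Ndufa11, which sits beside the contact with complex III in supercomplexes, had 89.0 and 88.7 scaled RPKM in the controls and 91.7, 81.7 and 91.8 in OSKM-CMs (log2 fold change -0.0095, SE 0.11, adjusted p = 0.959). Its groups overlapped, and its sign turned with the scaling: the log2 fold change was 0.41 under library totals (adjusted p = 0.0271), 0.19 under totals over nuclear genes and 0.046 without OSKM replicate 2. Within a library, Ndufa11 over Ndufa13 RPKM was 0.249 and 0.224 in the controls and 0.563, 0.460 and 0.609 in OSKM-CMs, a difference that no scaling between libraries alters; the pair was chosen after the values were seen, as a gene not called and a large fall, so this is a description. The length behind the Ndufa11 values was 2657 bases, 2.89 times the longest coding transcript in GENCODE M21. The length as a divisor lowers its RPKM level and cancels from its fold change. Where the counted reads lie along this length was not examined, so reads from outside the coding transcript may enter both.

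Ndufc2, an accessory subunit anchored in the membrane arm, had 218 and 213 scaled RPKM in the controls and 167, 184 and 169 in OSKM-CMs (log2 fold change -0.32, SE 0.11, adjusted p = 0.0575). The groups did not overlap, and the gene passed the threshold without OSKM replicate 2 (-0.36, adjusted p = 0.0379) and with only genes of mean RPKM 5 or more (adjusted p = 0.0457); under library totals its sign turned (0.10, adjusted p = 0.488). Ndufb2, with 63 to 91 reads per library, had 4.97 and 5.25 scaled RPKM in the controls and 3.64, 4.28 and 4.12 in OSKM-CMs (log2 fold change -0.29, SE 0.15, adjusted p = 0.19). Every OSKM library was again below both controls, by a margin too small to pass, and under library totals the sign turned (0.055, adjusted p = 0.809).

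Promoters were searched because most nuclear subunits were called lower while these few were not. Of these few, only Ndufa11 had overlapping groups. RefSeq promoter windows (GRCm38.p6) matched 37 of the 42 Nduf genes; Ndufa2, Ndufa4l2, Ndufb9 and Ndufs1 are among those with no entry. The 250 bases before the start were read on both strands. The motif of NRF1 (nuclear respiratory factor 1), GCGCA, any base, then GCGC, was found in 7 of 37 member promoters (18.9%) and in 3.74% of 32851 windows. A member counted if any of its windows held a match, whereas the share over all windows counted single windows. A gene can have more than 1 window, so these percentages, and those of the motifs below, are not like for like. Carriers of the NRF1 motif were Ndufa5, Ndufa8, Ndufb4, Ndufs5 and Ndufs6, which were called lower, and Ndufa11 and Ndufaf4, which were not called. Ndufc2 and Ndufb2, also not called, had no match to this motif. The 4 windows shown are those of both NRF1 carriers not called and of Ndufs6 and Ndufb4 as examples of called carriers. They run 5′ to 3′ toward the gene, with NRF1 matches in capitals. The run AAGGTCA in capitals in Ndufb4 is the motif of estrogen-related receptors (ERR).
Ndufa11, chr17:56717512-56717761, plus strand: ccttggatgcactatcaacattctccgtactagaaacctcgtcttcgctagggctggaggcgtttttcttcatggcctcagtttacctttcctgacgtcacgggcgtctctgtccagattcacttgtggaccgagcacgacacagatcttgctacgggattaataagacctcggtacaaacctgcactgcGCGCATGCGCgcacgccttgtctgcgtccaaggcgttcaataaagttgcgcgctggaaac
Ndufaf4, chr4:24897833-24898082, plus strand: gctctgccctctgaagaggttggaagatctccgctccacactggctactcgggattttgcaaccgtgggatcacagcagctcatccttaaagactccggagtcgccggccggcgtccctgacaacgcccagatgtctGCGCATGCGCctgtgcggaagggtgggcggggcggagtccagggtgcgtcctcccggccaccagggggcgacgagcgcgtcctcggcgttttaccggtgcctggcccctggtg
Ndufs6, chr13:73328483-73328732, minus strand: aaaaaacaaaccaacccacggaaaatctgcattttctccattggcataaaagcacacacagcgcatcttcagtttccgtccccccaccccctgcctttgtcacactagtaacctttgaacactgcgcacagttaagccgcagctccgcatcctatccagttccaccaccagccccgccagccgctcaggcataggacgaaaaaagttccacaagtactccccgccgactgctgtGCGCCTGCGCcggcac
Ndufb4, chr16:37654369-37654618, minus strand: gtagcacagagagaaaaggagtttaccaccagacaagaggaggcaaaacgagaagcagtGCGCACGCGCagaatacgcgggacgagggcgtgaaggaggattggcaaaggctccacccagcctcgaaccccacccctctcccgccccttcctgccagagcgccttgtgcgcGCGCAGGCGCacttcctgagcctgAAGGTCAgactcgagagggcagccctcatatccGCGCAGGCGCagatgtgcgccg
Ndufa11 and Ndufaf4 carry the same run, GCGCATGCGC, 1 time each, at 60 to 51 and 113 to 104 bases before the start. Ndufs6 holds GCGCCTGCGC at 16 to 7 bases before the start, and Ndufb4 holds 3 matches. The ERR motif AAGGTCA occurred in 3 of 37 member promoters (8.11%, against 4.08% of all windows), the GABPA motif CCGGAAG in 4 (10.8%, against 6.91%) and the YY1 motif AAGATGGC in 0 (against 1.56%). Carriers of the ERR motif were Ndufb4 and Ndufs5, called lower, and Ndufb2, not called. All 4 carriers of the GABPA motif were called lower. Genes with a match are a description of these letters and not evidence of binding.

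Ndufa4, long counted as a complex I subunit and since assigned to complex IV, had 1868 and 2235 scaled RPKM in the controls and 1176, 1453 and 1336 in OSKM-CMs (log2 fold change -0.63, SE 0.14, adjusted p = 0.0122). The groups were apart, but the call was lost without control replicate 5 (-0.50, adjusted p = 0.0587), without OSKM replicate 1 (-0.55, adjusted p = 0.0515) and under library totals (-0.21, adjusted p = 0.176). Ndufa4l2, a relative induced by hypoxia, had only 5 to 16 reads per library. It stood at 3.70 and 2.72 scaled RPKM in the controls and 5.44, 1.68 and 1.71 in OSKM-CMs, with OSKM replicate 1 above both controls and the others below them (log2 fold change -0.22, SE 0.41, adjusted p = 0.722, and 0.088 under library totals).

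The assembly factors were expressed at lower levels per length, 22.7 to 40.1 scaled RPKM in the control mean, and 3 of 4 were called lower. Ndufaf2, a matrix-arm chaperone related to Ndufa12, had 24.3 and 21.2 in the controls and 13.5, 16.6 and 13.0 in OSKM-CMs (log2 fold change -0.63, SE 0.15, adjusted p = 0.0167). Ndufaf3, which acts with Ndufaf4 on the ubiquinone module, had 28.2 and 25.4 in the controls and 17.1, 21.4 and 18.4 in OSKM-CMs (log2 fold change -0.48, SE 0.14, adjusted p = 0.0355). Both sets of libraries were separate, with control replicate 5 the lower control and OSKM replicate 2 the highest of its group. Ndufaf1, part of the membrane-arm assembly complex, had 43.2 and 37.1 in the controls and 29.5, 31.1 and 27.5 in OSKM-CMs (log2 fold change -0.44, SE 0.13, adjusted p = 0.035). Ndufaf4 had 23.4 and 22.8 in the controls and 13.0, 20.5 and 16.1 in OSKM-CMs (log2 fold change -0.48, SE 0.19, adjusted p = 0.0885). The Ndufaf4 groups did not overlap, and without OSKM replicate 2 it passed (-0.64, adjusted p = 0.0227).

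The assembly factor calls changed with single libraries. The number called lower was 0 without control replicate 3, 1 without control replicate 5, 0 without OSKM replicate 1, 4 without OSKM replicate 2 and 0 without OSKM replicate 3. It was 0 under library totals and under totals over nuclear genes, and 0 by the FDR in the authors' deposited table, which was 0.0547 to 0.0975 for the 4 genes. Over all 49 genes that table had 39 lower and 0 higher, beside 15.4% of its 12446 genes lower. All 4 log2 fold changes stayed below 0 in each of these fits.

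A further 4 Ndufaf genes are listed under older symbols and fell outside the choice by symbol; they were matched by Ensembl identifier. Ndufaf8 (listed as 1810043H04Rik), the partner of Ndufaf5, fell from 36.2 ± 0.933 (SD, n = 2) to 19.9 ± 1.99 (SD, n = 3) scaled RPKM (log2 fold change -0.84, adjusted p = 0.00304). Ndufaf5, a hydroxylase of Ndufs7 (2310003L22Rik, log2 fold change -0.15, adjusted p = 0.502), Ndufaf6 (2310030N02Rik, -0.22, adjusted p = 0.383) and Ndufaf7, a protein methyltransferase (2410091C18Rik, 0.34, adjusted p = 0.172), were not called. Over all 8 Ndufaf genes 4 were lower and 0 higher, with a median of -0.46.

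Of 11 listed assembly factors without an Nduf symbol, 3 were lower, 1 higher and 7 not called, a share near the 30.2% of all tested genes called in either direction. Aifm1, which supports import of some complex I subunits, fell by 0.66 on the log2 scale (adjusted p = 0.00901), Ecsit by 0.65 (adjusted p = 0.0136) and Tmem126a by 0.63 (adjusted p = 0.00709). Without control replicate 5 the calls of Ecsit (adjusted p = 0.0775) and Tmem126a (adjusted p = 0.0516) were lost. Acad9, an acyl-CoA dehydrogenase that works with Ndufaf1 and Ecsit in the same assembly complex, rose instead, from 8.20 and 8.13 scaled RPKM in the controls to 11.3, 11.2 and 11.6 in OSKM-CMs (log2 fold change 0.43, adjusted p = 0.0346). Its groups were far apart relative to their spread, but the call was lost on leaving out any of the 5 libraries (adjusted p = 0.0623 to 0.112).

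The genomes were then compared within each library, where no scaling enters. Summed over members, the RPKM of the mt-Nd genes was 3.66 and 4.50 times that of the 36 nuclear subunits in the controls and 2.35, 2.06 and 2.13 times in OSKM-CMs. Each OSKM library lay below both controls, and the mean ratio in OSKM-CMs, 2.18 ± 0.154 (SD, n = 3), was 0.534 of the control mean of 4.08 ± 0.595 (SD, n = 2). Against the 7 core subunits alone the ratio fell to 0.578 of control, without mt-Nd6 to 0.522, and without the 3 genes with nuclear copies to 0.516. As a score over chosen members this ratio was not tested. Its level also rests on the gene lengths used, which are the same in every library. For nuclear subunits they ran from 0.90 (Ndufs4) to 7.3 (Ndufb7) times the longest coding transcript in GENCODE M21. For mt-Nd1 the length was 0.999 of it.

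In the sum mt-Nd1 carries most of the weight. With the median over members in place of the sum, the ratio was 8.42 and 10.1 in the controls and 9.02, 6.17 and 7.76 in OSKM-CMs, so that the groups overlapped. mt-Nd1 alone over the summed nuclear subunits was 2.45 and 3.01 in the controls and 1.37, 1.26 and 1.26 in OSKM-CMs, with the groups apart. mt-Nd5 over the same sum was 0.234 and 0.290 in the controls and 0.236, 0.175 and 0.217 in OSKM-CMs, with the groups overlapping.

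**Figure D5:**
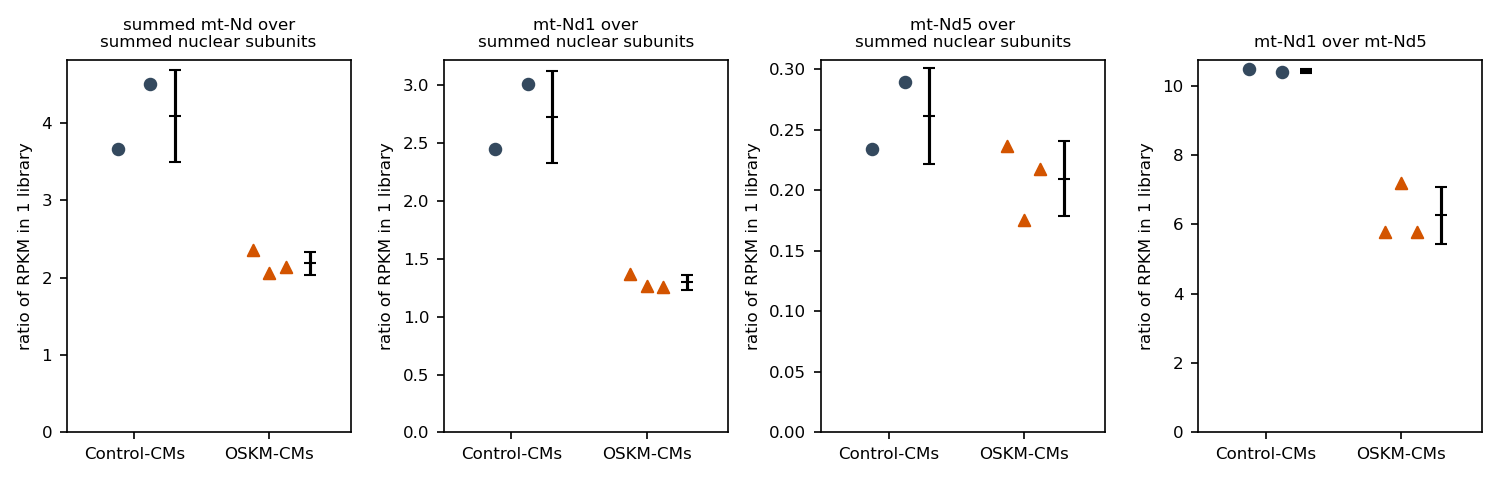
Ratios of RPKM within a library, from left to right summed mt-Nd over summed nuclear subunits, mt-Nd1 over that sum, mt-Nd5 over that sum and mt-Nd1 over mt-Nd5; points are libraries, and bars are mean and SD (n = 2 Control-CMs, n = 3 OSKM-CMs). The groups are apart for the first, the second and the last ratio and overlap for mt-Nd5 over the summed nuclear subunits.

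Replicates of a group also differed by genome. Control replicate 5 had the higher level for 7 of 7 mitochondrially encoded subunits and 26 of 36 nuclear subunits, but for 0 of 4 assembly factors. Among the OSKM libraries, replicate 2 was highest for 31 of 36 nuclear subunits and 4 of 4 assembly factors, but for 2 of 7 mitochondrially encoded subunits. The control spread was accordingly widest for the mitochondrial genes, with a summed level of 36517 and 49336 scaled RPKM, against 9971 and 10955 for the nuclear subunits.

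Genes around complex I were counted from fixed lists. Of 26 tested genes for mitochondrial DNA maintenance and expression, 6 were lower and 1 higher, with a median of -0.11; this share lies near the 30.2% of all tested genes called in either direction, so the called genes are given singly and not as a result on the list. Fastk, a mitochondrial RNA-binding protein whose short form is needed for mt-Nd6 RNA, fell by 1.09 on the log2 scale (adjusted p = 0.000851). Polg, the mitochondrial DNA polymerase, fell by 0.68 (adjusted p = 0.0253) and Fastkd1 by 0.66 (adjusted p = 0.0352). Elac2, which cuts transfer RNAs from the precursors at their 3′ ends, rose by 0.72 (adjusted p = 0.0218). The calls of Polg, Fastkd1 and Elac2 depended on single libraries: without control replicate 5 the log2 fold change of Elac2 was 0.45 (adjusted p = 0.112), that of Polg -0.63 (adjusted p = 0.106) and that of Fastkd1 -0.74 (adjusted p = 0.0802), and each was also lost without OSKM replicate 1 (adjusted p = 0.0616, 0.0783 and 0.0957) or OSKM replicate 3 (0.0727, 0.0723 and 0.0923). Without control replicate 3, Polg (adjusted p = 0.0708) and Fastkd1 (adjusted p = 0.14) were lost as well.

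Complex II, the other entry point for electrons and wholly nuclear-encoded, had 4 of 6 listed genes lower, beside 14.3% of all tested genes. Sdha fell by 0.97 on the log2 scale (adjusted p = 0.00156) and Sdhb by 0.92 (adjusted p = 0.00147), in the range of the complex I core subunits. Sdhc fell by 0.51 (adjusted p = 0.0225) and Sdhd by 0.36 (adjusted p = 0.0318), and under library totals the sign of Sdhd turned (0.062, adjusted p = 0.632). Both of these calls were lost without any library other than OSKM replicate 2 (adjusted p = 0.0773 to 0.0928 for Sdhc and 0.0735 to 0.12 for Sdhd). Of 3 genes that link complexes into supercomplexes or aid complex IV, Higd2a fell by 1.06 (adjusted p = 0.00132) and Cox7a2l by 0.52 (adjusted p = 0.0165). The Cox7a2l call was lost without control replicate 5, OSKM replicate 1 or OSKM replicate 3 (adjusted p = 0.0898, 0.063 and 0.0632).

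Of 12 transcriptional regulators of mitochondrial genes, 3 were lower, 1 higher and 8 not called, again a share near the 30.2% called over all tested genes. Ppara, a receptor that drives fatty acid oxidation genes, had 16.1 and 13.6 scaled RPKM in the controls and 5.01, 7.29 and 3.16 in OSKM-CMs (log2 fold change -1.41, adjusted p = 0.00947, and -1.30 with adjusted p = 0.0543 without control replicate 3). Hif1a, the oxygen-regulated factor, rose from 18.8 and 24.2 to 51.6, 43.4 and 57.2 (log2 fold change 1.20, adjusted p = 0.00176). The groups were apart for both. Esrrg fell by 0.65 (adjusted p = 0.0346) and Esrra by 0.54 (adjusted p = 0.0431), and both calls were lost without any library other than OSKM replicate 2 (adjusted p = 0.0692 to 0.147 for Esrrg and 0.0783 to 0.194 for Esrra). Library totals ended the calls of Aifm1, Ecsit, Tmem126a, Polg, Fastkd1, Sdhc, Cox7a2l, Esrrg and Esrra, with log2 fold changes from -0.31 to -0.090 (adjusted p = 0.18 to 0.609). Totals over nuclear genes ended those of Polg, Fastkd1, Sdhc, Sdhd, Cox7a2l, Esrrg and Esrra (-0.50 to -0.15, adjusted p = 0.0659 to 0.239), and limma without trend and robust steps those of Sdhd and Esrra (adjusted p = 0.0803 and 0.071).

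Some cell type markers and depth differed between the groups. Over all tested genes, 14.3% were called lower and 15.9% higher (30.2% in either direction). The summed level of 10 cardiomyocyte markers was 36652 to 40211 scaled RPKM in the controls and 18870 to 22472 in OSKM-CMs, with 8 of 10 lower and 0 higher. All 10 were expressed in both groups. Of 8 listed fibroblast markers, 7 of them tested, 4 were higher and 0 lower (sum 35.3 to 67.0 in the controls and 88.4 to 199.8 in OSKM-CMs). Those higher were Col1a1, Col1a2, Col3a1 and Postn. For Pdgfra, Dcn and Lum, tested but not called, and for Ddr2, not tested, the groups overlapped. Of 10 endothelial markers 2 were lower and 0 higher (290 to 328 and 96.9 to 212), near the share of all tested genes. Their median log2 fold change was -0.71. Fabp4, 1 of the 2 called lower, made up most of that sum in the controls, with group means of 213 in the controls and 101 in OSKM-CMs. Macrophage and leukocyte markers had no call among 5 tested (13.0 to 53.4 and 8.15 to 40.2). Of 9 smooth muscle and pericyte markers 1 was lower and 2 higher (163 to 180 and 85.3 to 123), near the share of all tested genes. Abcc9, the 1 called lower, weighed heavily in that sum, with group means of 80.8 in the controls and 14.2 in OSKM-CMs. Those called higher were Cspg4 (1.81 and 22.7) and Pdgfrb (4.17 and 8.47). The 1 listed erythroid marker was lower. None of the listed markers was at 0 in both controls. Recovered reads over the listed genes totalled 3519628 to 3861805 in the controls and 2691796 to 2780751 in OSKM-CMs. The part of these differences in the complex I result was not tested.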

How the data were processed

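RNA of 5 libraries of isolated adult mouse cardiomyocytes was analysed from 1 deposited table. Per the submitters' processing notes, STAR 2.5.3 and HTSeq were used with build mm9, besides CASAVA 1.8.2, Trimmomatic and FastQC; annotation, strand setting and the handling of shared reads are not given in the sources used here. The authors' deposited library values were taken as RPKM, a unit inferred from the values because no header names it. Further columns deposited by the authors hold a log2 fold change, an average log2 abundance, a likelihood-ratio score, and a p-value with its FDR per gene.

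Whole reads were recovered from the RPKM steps for all 12446 genes (100%, tolerance 0.0001 reads; for 440 genes a common factor was settled from the authors' average abundance). Libraries totalled 2691796 to 3861805 reads over listed genes. RPKM were scaled by TMM factors from these reads (30% of log ratios and 5% of abundances trimmed). The 10915 genes whose mean RPKM reached 1 were fitted as log2(scaled RPKM + 1) with limma 3.58.1 in R 4.3.3, with abundance trend and robust empirical Bayes, 2-sided, Benjamini-Hochberg adjustment over all tested genes and a threshold of 0.05. The added 1 understates fold changes of low genes. The script was tested on simulated data. Sequence copies were sought with BLAST 2.17.0 against GENCODE M21 pseudogene transcripts (at least 98% identity over 200 bases).

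Genes were named by rule: every mitochondrially encoded subunit, the 7 nuclear core subunits, the 4 accessory subunits with the largest fall and each not called, Ndufa4 and its relative, every assembly factor with an Ndufaf symbol, and up to 4 called genes of each other list. Members and lists were chosen with earlier results of these data known. Alternatives were 3 other scalings, 2 other pseudocounts, 2 other filters, limma without trend and robust steps, limma voom on recovered reads, the authors' deposited test and leaving out each library. Replicates were distinct libraries (chi-square per gene 3.50 to 5.81). 1 member is not reported here by name, though it is counted in class totals.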

Additional observations from a re-analysis of the deposited data

How the results depend on the processing

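No paired analysis was possible because only 1 replicate number occurs in both groups. The main scaling gave 44 complex I genes lower and 0 higher; library totals gave 27 lower and 1 higher, with 21 nuclear subunits and 0 assembly factors lower. Medians under library totals were -0.80 for mitochondrially encoded subunits, -0.42 for nuclear subunits and -0.078 for assembly factors. Under totals over nuclear genes they were -1.01, -0.64 and -0.28, with 0 assembly factors lower. Over all tested genes, library totals gave 650 lower and 3985 higher and totals over nuclear genes 1025 lower, with gene medians of 0.36 and 0.19. Without trend and robust steps 1 assembly factor was lower, and by the authors' deposited test 0. Mitochondrially encoded genes held 21.2% and 24.7% of the recovered reads in Control-CMs replicates 3 and 5. In OSKM-CMs replicates 1, 2 and 3 they held 11.1%, 10.5% and 9.76%. The cause of the differences between settings was not tested.

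Leaving out 1 library at a time gave 36 to 45 complex I genes lower, 29 to 34 nuclear subunits, 6 to 7 mitochondrially encoded subunits, 0 to 4 assembly factors, 957 to 1492 genes lower and 1153 to 1575 higher over the table, and mitochondrial medians of -1.51 to -0.94. With 1 control left, it was assumed to vary like the OSKM libraries. The summed ratio of the genomes, 0.534 of control, became 0.826 as a median over members; the version without genes that have nuclear copies was added after seeing the data. Signs turned under library totals for Ndufa11 (0.41), Ndufc2 (0.10), Ndufb2 (0.055), Ndufa4l2 (0.088) and Sdhd (0.062), and for Ndufa11 also under totals over nuclear genes (0.19). Leaving out 1 library at a time, Ndufa11 ranged from -0.038 to 0.046, the latter without OSKM replicate 2. Limma voom on recovered reads called 1804 genes lower and 1792 higher, and 43 complex I genes lower. Of all comparisons of a named complex I gene with an alternative, 361 kept direction and side of the threshold, 32 lost the call, 4 gained it and 6 turned sign. Depth limits mt-Nd4l, Ndufb2, Ndufaf2, Ndufaf3 and Ndufa4l2, each with fewer than 100 reads in every library.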
